A study of Mus musculus with 4 samples.

Results

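Cubilin and its partners carry vitamin B12, or cobalamin, out of the gut lumen, and 7 genes of this route were followed here in mouse small intestine with and without villin-Cre deletion of HNF4. The genes were Cubn, Amn, Lrp2, Lrpap1, Dab2, Tcn2 and Lmbrd1, out of 12393 genes named on the array. All probe sets to which the platform annotation gave exactly 1 of these symbols were taken, which made 15 of the 22626 probe sets on the array apart from controls. Of the 15, 13 were bright enough to enter the fit over 15838 probe sets, and the other 2, for Lrp2 and Dab2, are given as values. The genes were proposed because Cubn had stood out as lower in the null mice, so the null minus control values of all 7 are a description, and counts of calls among them, given for comparison with the whole array, support nothing.

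The series holds 4 small intestines, 1 array per mouse, from mice that were all 1 month old. The null mice, 1 male and 1 female, are labelled HNF4loxp/- with villin cre. The control female carried the loxP allele over a wild-type allele with villin cre, and the control male carried loxP over minus with no Cre. All 4 animals thus carried a floxed allele, and 1 control shared the Cre while the other shared the minus allele. Villin drives Cre in the intestinal epithelium, so other cells of the wall keep the floxed allele. The labels name neither the HNF4 paralogue deleted, nor the segment of intestine, nor whether epithelium was separated. The 2 controls differ in both sex and genotype, whose parts cannot be told apart. The labels give 4 separate animals, and nothing says whether they were littermates.

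Dietary cobalamin reaches the ileum bound to intrinsic factor, the product of Cblif. The complex is taken up at the brush border by cubam, which consists of cubilin, the large peripheral receptor made of CUB domains, and amnionless, the membrane protein that anchors cubilin and brings it to the surface. In kidney and yolk sac cubilin also works with megalin (Lrp2), a giant receptor of the LDL receptor family whose folding needs the chaperone RAP (Lrpap1), and the clathrin adaptor Dab2 links such receptors to the coat. Cobalamin leaves the lysosome through LMBD1 (Lmbrd1) together with ABCD4, and travels in blood on transcobalamin (Tcn2), which cells take up through CD320.

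Values are intensities as deposited unless a log2 value is named, and log2 values are log2(quantile-normalized intensity + 16). Array medians lay between 43.2 and 53.3, and the male null array, with the lowest median, also had the lowest correlations with the other arrays (0.927 to 0.946). Depth in reads does not apply to arrays, and the number of arrays limits the precision. All 4 Hnf4a probe sets and both Hnf4g probe sets had a null minus control difference above 0, from 0.08 to 0.32. For Hnf4a these were 0.51, 0.53, 0.62 and 0.23 between the males, but −0.24, 0.10, −0.16 and −0.07 between the females. For Hnf4g they were 0.17 and 0.15, then 0.06 and 0.16. The position of these probes relative to the deletion is unknown, so they do not check the null labels. Probe sets of Y-linked genes read −2.23 to 34.4 in the 2 females, with a median of 13.9, which shows what intensity these arrays give where a transcript is absent.

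The promoters of Cubn and Amn are shown because their products form 1 receptor and both genes were lower in the null mice. Each sequence is the 250 bases before the annotated start, on the gene's own strand, from RefSeq (GRCm38.p6), and capitals mark CAAAG, the core of the sites that HNF4 proteins bind, on either strand. The Cubn stretch is chr2:13491877-13492126 on the minus strand and the Amn stretch is chr12:111270846-111271095 on the plus strand.
Cubn: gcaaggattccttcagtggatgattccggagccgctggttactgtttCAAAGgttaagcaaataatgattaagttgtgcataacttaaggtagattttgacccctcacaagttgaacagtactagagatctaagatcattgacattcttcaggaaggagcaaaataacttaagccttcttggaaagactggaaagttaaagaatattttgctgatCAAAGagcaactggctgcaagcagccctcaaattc
Amn: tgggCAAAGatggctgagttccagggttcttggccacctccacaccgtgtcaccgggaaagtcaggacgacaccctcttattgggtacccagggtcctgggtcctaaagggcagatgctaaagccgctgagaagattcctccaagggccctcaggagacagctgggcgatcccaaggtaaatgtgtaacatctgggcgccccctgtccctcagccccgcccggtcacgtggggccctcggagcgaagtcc
The Cubn stretch held CAAAG with its first base 203 and 35 bases before the start, and the Amn stretch 246 bases before it. CAAAG is short, and 48.6% of the 32851 promoter stretches of the same length in the table held it, as did 6 of the 8 stretches of the uptake genes, 1 for each of Cubn, Amn, Lrp2, Lrpap1, Dab2 and Lmbrd1. The fuller HNF4 sequences CAAAGTCCA and CAAAGGTCA, which both contain CAAAG, were found in 0 of the 8 stretches of the uptake genes, against 0.384% and 0.426% of all stretches. A GATA sequence, AGATAA, was in 0 of the 8, against 9.99% of all. The CDX sequence TTTATT was in 2, 1 of Dab2 and 1 of Lmbrd1, against 18.1%, and the HNF1 sequence GTTAAT was in 1, of Dab2, against 6.43%. Each motif was searched on both strands, and the motifs were chosen after the promoters were seen. Of the 7 genes, 6 had a promoter in the table, with 2 each for Dab2 and Lmbrd1. By base composition the Cubn stretch had 39.6% G and C and the Amn stretch 61.2%, with a median of 52.4% over all promoters.

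Cubn was lower in both null mice than in both controls, on both of its probe sets. The brighter one (1452270_s_at) read 199.6 in the male null mouse and 209.7 in the female null mouse, against 682 in the male control and 464 in the female control. The null mice lay close together and the controls lay apart, and the groups did not overlap. On the log2 scale the means were 7.81 ± 0.07 for null and 9.16 ± 0.40 for control (SD, n = 2 mice each). The difference was −1.35 (SE 0.24, 95% interval −1.91 to −0.78), which places the null level at 39.3% of the control level.

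The other Cubn probe set (1426990_at) read 83.0 and 103 in the male and female null mice, against 347 and 234 in the male and female controls. Its order of the groups was the same, again without overlap. On the log2 scale its means were 6.79 ± 0.04 and 8.22 ± 0.40 (SD, n = 2 each), and the difference was −1.43 (SE 0.25, 95% interval −2.03 to −0.83). Both probe sets measure the same 4 RNA samples, so they are not independent evidence. The suffix _s_at is the maker's mark for probes that may match more than 1 transcript, and the second set carries no such mark.

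Within each sex the Cubn difference had the same direction, and it was larger in the males. It was −1.58 and −1.74 on the 2 probe sets between the males, and −1.11 on both between the females. Taken as ratios of the intensities as deposited, the male control stood at 3.42 and 4.18 times the level of the male null mouse, and the female control at 2.21 and 2.27 times that of the female null mouse. The gap between the sexes lay in the controls: the male control exceeded the female control by 0.57 on each probe set, while the null mice differed by 0.10 and −0.06. In the controls sex goes with genotype, as the male has no Cre and a minus allele and the female has Cre and a wild-type allele. Leaving out the male control reduced the difference to −1.06 on the brighter probe set, and leaving out the female control made it −1.63.

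Amn, whose product carries cubilin to the cell surface, was also lower in both null mice, by less than Cubn. Its 1 probe set (1417920_at) read 423 and 440.1 in the male and female null mice, against 570.0 and 733 in the male and female controls. The 2 null mice nearly coincided, and both controls lay above them. The log2 means were 8.83 ± 0.01 and 9.35 ± 0.21 (SD, n = 2 each), with a difference of −0.52 (SE 0.18, 95% interval −0.94 to −0.09), so that the null level was 69.8% of the control level. The differences were −0.36 between the males and −0.67 between the females. The controls were in the reverse order to Cubn, with the male control 0.30 below the female control on the log2 scale. Without the male control the Amn difference was −0.67, and without the female control −0.37.

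**Figure D1:**
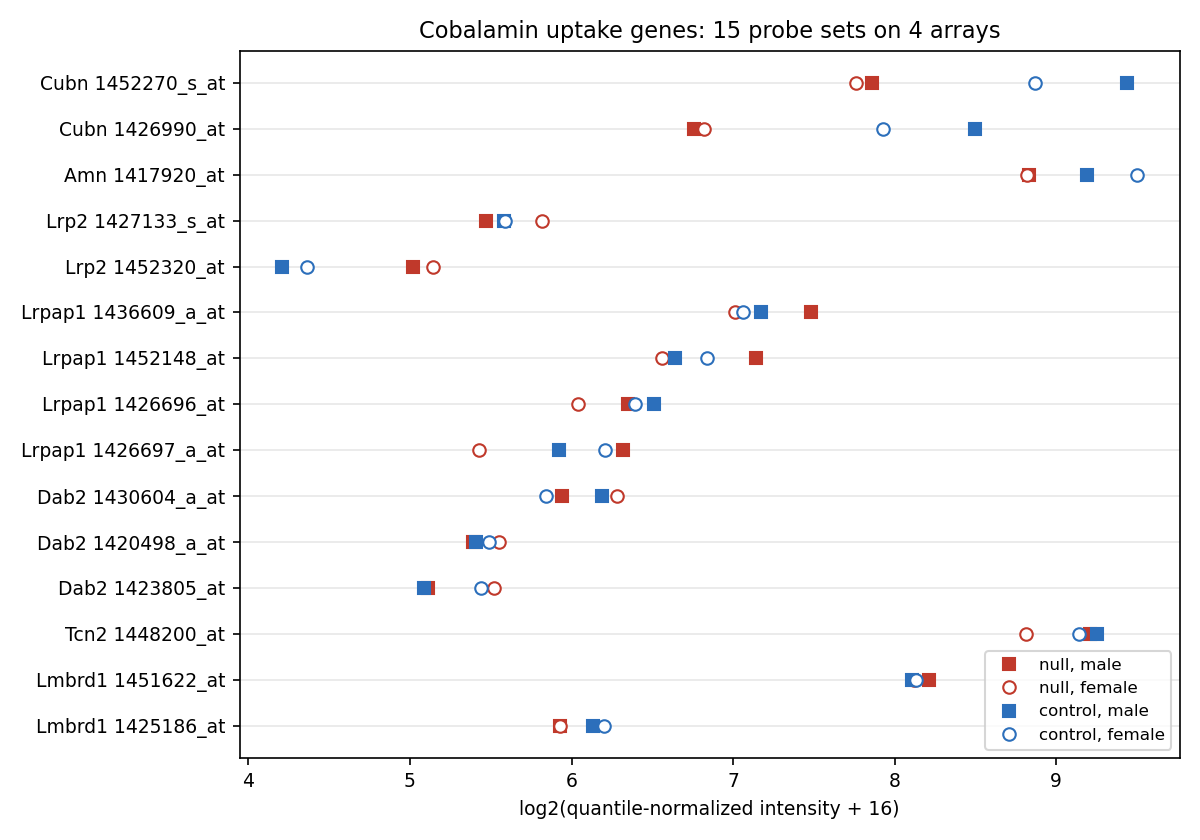
Values of the 15 probe sets of the 7 uptake genes on the 4 arrays, as log2(quantile-normalized intensity + 16), with red for null, blue for control, squares for males and circles for females. Both Cubn probe sets and Amn have the 2 null arrays to the left of the 2 controls, while most other probe sets have the groups mixed.

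Megalin was dim on both Lrp2 probe sets. The brighter one (1427133_s_at) read 24.1 and 44.2 in the male and female null mice and 32.2 and 32.8 in the male and female controls. The null mice lay on either side of the controls, and the difference was 0.06 (SE 0.26, 95% interval −0.55 to 0.67). All but the female null value lay within the range of Y-linked genes in females. The second Lrp2 probe set (1452320_at) was too dim to be tested. Null mice gave 12.9 and 22.0, controls 2.85 and 5.09, with both null values higher and every value inside the range that Y-linked genes gave in females. No fold is given for such dim values.

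Lrpap1, the chaperone RAP of LDL receptor family members, had 4 probe sets that did not share a direction. The brightest (1436609_a_at) read 149 and 120.0 in the male and female null mice and 128 and 120.4 in the male and female controls. Its difference was 0.13 (SE 0.24), with the male null mouse highest and the other 3 arrays close together. The remaining differences were 0.11 (1452148_at), −0.25 (1426696_at) and −0.19 (1426697_a_at). On 1426696_at both null mice, at 58.1 and 54.1, lay below both controls, at 75.7 and 69.4. On the other 3 the groups overlapped and the sexes went opposite ways, with differences of 0.31, 0.50 and 0.40 between the males and −0.05, −0.28 and −0.78 between the females.

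Dab2, the clathrin adaptor that binds the tails of megalin and amnionless, overlapped between the groups on all 3 of its probe sets. The brightest (1430604_a_at) read 39.8 and 66.6 in the male and female null mice and 58.1 and 42.0 in the male and female controls, so each group had 1 higher and 1 lower animal. Its difference was 0.09 (SE 0.26, 95% interval −0.53 to 0.72). The other 2 gave 0.03 (1420498_a_at, SE 0.25) and 0.05 (1423805_at, below the intensity filter). Their values ran from 14.9 to 34.1, within the range of Y-linked genes in females, so only the brightest probe set lay above that range on all 4 arrays.

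Tcn2, the plasma carrier of cobalamin, read 568 and 438 in the male and female null mice and 592 and 564 in the male and female controls. The female null mouse was the lowest of the 4, the other 3 lay close together, and the male null mouse (568) lay between the controls. The difference was −0.19 (SE 0.19, 95% interval −0.65 to 0.27), with −0.04 between the males and −0.33 between the females. Lmbrd1, the lysosomal cobalamin exporter, read 261 and 273 in the null mice and 260.1 and 272 in the controls on its brighter probe set (1451622_at), with males before females. These 4 values were nearly the same, and the log2 difference was 0.05 (SE 0.18, 95% interval −0.39 to 0.48). Its dimmer probe set (1425186_at) had both null mice, at 39.5 and 49.1, below both controls, at 54.8 and 58.9, with a difference of −0.24 (SE 0.22). The 2 Lmbrd1 probe sets thus had opposite signs.

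Counts over the route were read against all probe sets tested. In limma with Benjamini-Hochberg adjustment 0 of the 13 tested probe sets of the uptake genes had an adjusted p under 0.05, where 2 of all 15838 (0.0126%) had, 1 of them lower in the null mice (0.00631%), and 3 of the 13, both of Cubn and that of Amn, had an unadjusted p under 0.05, as did 3.03% of all. With sex as a block, both Cubn probe sets passed, among 29 of 15838 (0.183%), of which those lower in the null mice were 0.0947%. Both null arrays were below both controls on 5 of the 13 (16.3% of all probe sets) and above both on 0 (13.5% of all), while 29.8% of all probe sets had groups that did not overlap. Of the 13, 7 had a difference below 0 (52.2% of all) and 6 had the same sign in both sexes (48.2% of all). The 5 were both of Cubn, that of Amn, 1 of Lrpap1 and 1 of Lmbrd1. A difference of at least 2-fold on the log2 scale, downwards in each sex, was met by the 2 Cubn probe sets and by 21 probe sets in all (0.133%). Since the choice of genes used this comparison, nothing is read from these counts. Outside Cubn and Amn the 10 tested probe sets ran from −0.25 to 0.13, with 4 below 0 and 6 above.

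**Figure D2:**
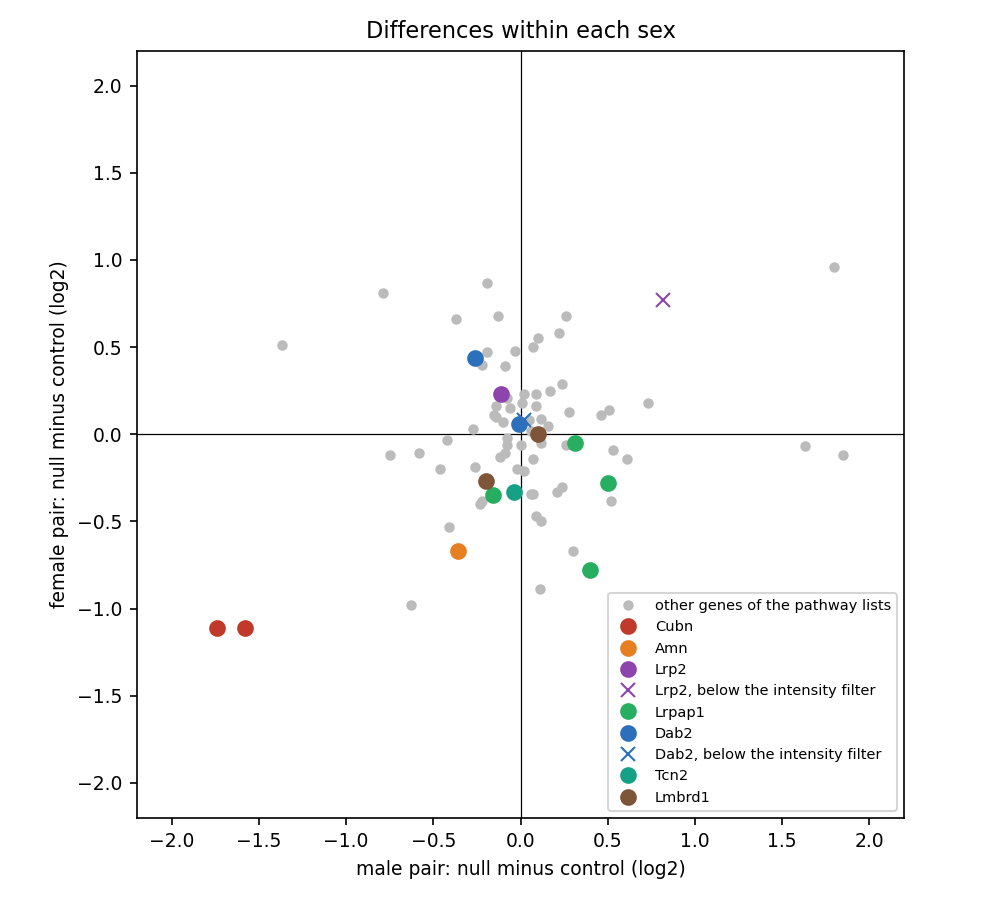
Null minus control differences between the males (x axis, log2) and between the females (y axis, log2). Colour marks each probe set of the uptake genes, with crosses for those below the intensity filter. Grey marks the brightest probe set of each other tested gene of the pathway lists. Cubn lies farthest to the lower left, at −1.58 and −1.74 between the males and −1.11 between the females, and Amn lies at −0.36 and −0.67; the grey point nearest to Cubn is Slc23a1, at −0.63 and −0.98.

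Among all named probe sets tested, the 5 genes whose values were most like those of Cubn over the 4 arrays were Nr1i3, Adh4, Ces1e, Retsat and Hsd17b2. Likeness was the Euclidean distance between log2 values centred on their own mean, and it was 0.15 for Nr1i3 and for Adh4, 0.29 for Ces1e, 0.33 for Retsat and 0.37 for Hsd17b2. For scale, the other Cubn probe set lay at 0.14, Amn at 1.04 and the median probe set at 1.45. Nr1i3, the nuclear receptor CAR, read 35.4 and 43.6 in the male and female null mice and 139 and 97.1 in the male and female controls. Adh4, an alcohol dehydrogenase, read 97.3 and 113 against 415 and 263 in the same order. In both the male control was the highest and the null mice nearly level, as for Cubn. All 5 genes were picked for this likeness on the same 4 arrays, so their order and differences follow from the choice. Retsat, the enzyme retinol saturase, read 476 and 437 against 1366 and 761, a difference of −1.09 (SE 0.28). Hsd17b2, a steroid dehydrogenase, differed by −1.15 (SE 0.22). Ces1e, a carboxylesterase, read 12.8 and 11.0 in the null mice, inside that dim range, against 66.5 and 52.3.

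The other genes of the route were taken from 7 lists chosen by function, with each gene represented by its brightest probe set. Of 91 listed genes 78 had a probe set of their own and 69 were tested. In limma 0 of the 69 passed in either direction, and 2, Scgb1a1 and Slc23a1, had an unadjusted p under 0.05; over all 9546 genes tested 2 passed and 306 had such a p. With sex as a block 0 of the 69 passed, and 25 of the 9546. The 69 had a median difference of 0.04, with 38 above 0 and 31 below, beside a median of 0.00 over all genes.

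Of the further cobalamin carriers and receptors, all 3 that were tested had differences slightly above 0 (median 0.22) and groups that overlapped. Of these, 0 had the same sign in both sexes, and the medians were −0.03 between the males and 0.47 between the females. Cblif, which encodes intrinsic factor and is made mainly in the stomach, read 20.4 and 54.4 in the male and female null mice and 25.7 and 32.0 in the male and female controls. The female null mouse was highest, the other 3 values lay within the range of Y-linked genes in females, and the difference was 0.23 (SE 0.31). Cd320, the transcobalamin receptor, differed by 0.22 (SE 0.29) and by −0.13 on its dim second probe set. Abcc1, an efflux pump that can export cobalamin, differed by 0.14 (SE 0.28) and by 0.07 on its dim second probe set. Abcd4, the partner of LMBD1, was below the intensity filter, at 24.1 and 21.3 against 13.1 and 20.6, and its 2 probe sets had differences of opposite sign (0.28 and −0.17). Tcn1 was not in the annotation.

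Of the enzymes and chaperones that use cobalamin inside the cell, 7 of 10 were tested, with 4 above 0, 3 below and a median of 0.07. Mmut, the mitochondrial methylmalonyl-CoA mutase, had the lowest value. It read 123 and 121 in the male and female null mice against 185 and 176 in the male and female controls, so that the groups lay apart, and it differed by −0.47 (SE 0.21, unadjusted p = 0.0622, adjusted p = 1 in limma). Its other 2 probe sets gave −0.23 and −0.02. Mmadhc, which directs cobalamin to its enzymes, differed by −0.23 (SE 0.18), Mmab, which makes adenosylcobalamin, by 0.21 (SE 0.22), and Pcca, a subunit of the carboxylase upstream of the mutase, by 0.12 (SE 0.22). The 2 other Mmab probe sets gave −0.08 and −0.09. Mtr, the cobalamin-dependent methionine synthase, had no probe set with its name alone. The sign of this list's median depended on single arrays, and it lay between −0.20 and 0.19 when 1 array was left out.

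Genes of clathrin coats and apical recycling were close to 0, with a median of −0.06 over 16 genes, 5 above 0 and 11 below. The recycling GTPase gene Rab11a differed by −0.31 (SE 0.19) and its other probe set by −0.33. Eps15, a coat scaffold, differed by 0.29 (SE 0.30) and by −0.18 on its other probe set. Gipc1, an adaptor that binds megalin, differed by 0.13 (SE 0.22), and Ap2b1, an AP-2 subunit, by −0.11 (SE 0.20) and by 0.08 on its other probe set.

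The LDL receptor family outside Lrp2 had a median of 0.10 over 7 genes, with 5 above 0. The sorting receptor gene Sorl1 read 153 and 141 in the male and female null mice and 95.9 and 118 in the male and female controls, higher in both null mice, with a difference of 0.45 (SE 0.23) and 0.31 on its other probe set. Lrp1 differed by 0.26 (SE 0.27) and Lrp10 by 0.10 (SE 0.22). The Wnt coreceptor gene Lrp6 differed by −0.44 (SE 0.37) and by −0.16 on its other probe set.

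Ligands of cubilin and megalin had a median of 0.23 over 6 genes, with 4 above 0. Scgb1a1, a secreted protein that cubilin binds in kidney, read 66.7 and 105 in the male and female null mice and 10.5 and 43.7 in the male and female controls. Both null mice were above both controls, and the difference was 1.38 (SE 0.40, unadjusted p = 0.012, adjusted p = 1 in limma), but the male control value lies in the range of Y-linked genes in females, and the size is therefore a rough one. Apoe, the lipid carrier, read 537 and 568 against 465 and 391, and differed by 0.40 (SE 0.18). Only these 2 of the 6 had the same sign in both sexes.

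Genes for the uptake of other vitamins had a median of 0.07 over 10 genes, with 6 above 0. Slc23a1, the ascorbate transporter of the brush border, was the exception in size. It read 64.7 and 55.0 in the male and female null mice against 121 and 118 in the male and female controls, so the groups lay far apart, and it differed by −0.80 (SE 0.24, unadjusted p = 0.0131, adjusted p = 1 in limma). Its other probe set, below the intensity filter, gave −0.06. The folate receptor gene Folr1 differed by 0.32 (SE 0.24), the thiamine transporter gene Slc19a2 by 0.28 (SE 0.34) and −0.16 on its dim second probe set, and Rbp2, the retinol carrier of enterocytes, by −0.05 (SE 0.14).

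Lysosomal genes, whose products degrade what the receptors bring in, had a median of 0.03 over 20 genes, with 11 above 0 and 9 below. The protease gene Ctsl read 225 and 370.3 in the male and female null mice and 200.2 and 226 in the male and female controls, and differed by 0.47 (SE 0.24). Ctss, a protease of immune cells, differed by 0.32 (SE 0.17), Glb1, lysosomal beta-galactosidase, by −0.33 (SE 0.23), and the protease gene Ctsd by −0.30 (SE 0.19).

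**Figure D3:**
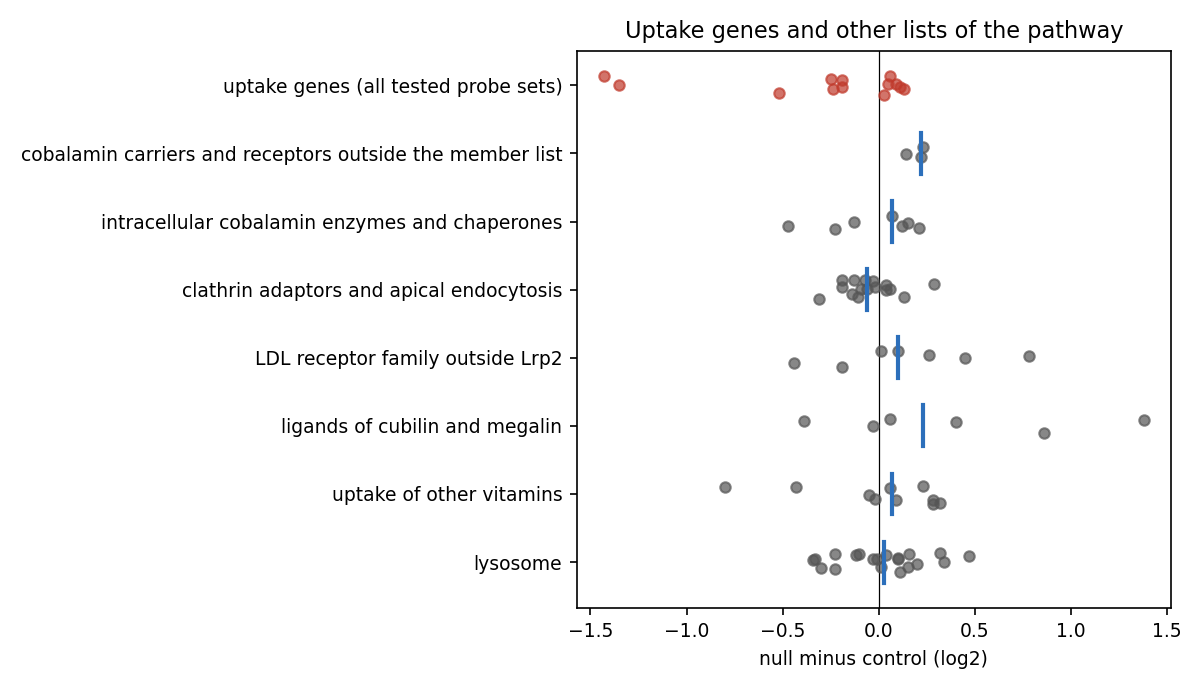
Null minus control differences (x axis, log2) for the tested probe sets of the uptake genes, in red, and for the brightest probe set of each tested gene in the 7 pathway lists, in grey; blue bars are list medians. List medians lie between −0.06 and 0.23, and the 2 points at −1.35 and −1.43 are Cubn.

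The arrays measured RNA pooled over all cells of a sample, in which fewer cells of a type and less RNA per cell cannot be told apart. Enterocyte genes were present at high intensities on all 4 arrays: Fabp2, the intestinal fatty acid binding protein, read between 6580 and 7836. Of 8 enterocyte markers 6 had a probe set of their own, and all 6 differences were below 0, with a median of −0.22, from −0.08 between the males and −0.36 between the females. In limma 0 of the 6 passed and 1, the aminopeptidase gene Anpep at −0.39 (SE 0.14), had an unadjusted p under 0.05. Their summed normalized intensity was 14856 and 13455 in the male and female null mice and 15592 and 17280 in the male and female controls, which is 90.4% and 81.9% of the control mean in the null mice. Cubn stood at 38.3% and 35.4% of its control mean on the brighter probe set, and Amn at 68.9% and 68.4%. Whether the enterocyte shift has a part in the Cubn and Amn values was not tested.

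Cubilin is known to be most abundant in the distal small intestine, so segment markers were set beside it. All 5 tested distal markers had differences below 0, with a median of −0.34, but the medians were 0.13 between the males and −0.50 between the females. Their sum, over 6 genes with Slc10a2 included, was 68.3% and 66.1% of the control mean in the male and female null mice, and 85.1% and 115% in the male and female controls. Nts, the neurotensin gene, differed by −1.61 (SE 0.33) and the transcription factor gene Osr2 by −0.57 (SE 0.21), each in both sexes. Fabp6 was dim over the 4 arrays, at 21.3 to 53.8, as was the bile acid transporter gene Slc10a2, at 8.78 to 20.7. Slc51a of the same list was brighter and made the largest part of the distal sum. It read 412 and 377 in the male and female null mice and 393 and 681 in the male and female controls. The 7 proximal markers had a median of 0.04, with Cck, a hormone gene, at 0.71 (SE 0.26) and Fabp1 at −0.21 (SE 0.08). Their sum was 81.6% and 88.6% of the control mean in the male and female null mice. Fabp1 made most of that sum, at 5851 and 5753 in the male and female null mice and 6805 and 6650.3 in the controls. Gip of the same list read 635 and 714 in the male and female null mice and 1535 and 749.6 in the male and female controls. Of the 7 genes, 4 were above 0, so the sum does not stand for the list. The part of the sampled segment in the Cubn and Amn values was not tested. Between the males, where Cubn differed most, the distal median was above 0 while the distal sum was lower in the null mouse.

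Markers of the absorptive cells of the suckling ileum, which are rich in lysosomes and in cubam, had a median of −0.01 over 6 genes. Of these Tmigd1, a membrane protein of enterocytes, read 54.0 and 64.5 in the male and female null mice and 108 and 401 in the male and female controls. It was lower in both null mice and much the highest in the female control, with a difference of −1.55 (SE 0.51, unadjusted p = 0.021, adjusted p = 1 in limma). No other gene of that list had an unadjusted p under 0.05. The summed level of this list was 76% and 109% of the control mean in the male and female null mice and 83.7% and 116% in the male and female controls. Tmigd1 made most of the gap between the controls, and in the null mice Ctsl (225 and 370.3) and Lgmn (137 and 336), a lysosomal protease gene, were higher in the female.

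Lists of the other cell types were set beside the uptake genes, since macrophages express Dab2 and endothelium expresses Tcn2. Macrophage markers summed to 97.8% and 97.6% of the control mean in the male and female null mice, and 105% and 95.2% in the controls. Most of this sum was 1 gene, Lyz2, at 2795 and 2575 in the male and female null mice and 3299 and 2884 in the controls. Lyz2 differed by −0.17, while 4 of the 6 tested genes were above 0, with a median difference of 0.16. Endothelial markers summed to 121% and 127% against 109% and 90.6%, with a median of 0.23. Fibroblast markers stood at 162% and smooth muscle markers at 131% in the female null mouse, against 86.9% and 103% in the male null mouse, while Cubn was at 35.4% and 38.3% of the control mean in these animals, female before male. T cell markers, at 79.4% and 56.5%, were below both controls (96.6% and 103%), with a median of −0.48 over 5 tested genes. Kidney tubule genes were dim, at most 89.0 on any array. Some B cell and plasma cell markers differed between the male and the female mice, with 1 animal per sex and group. Jchain, of plasma cells, read 2944 and 3243 in the males, null before control, then 1480.4 and 1395 in the females. The B cell gene Ms4a1, taken in that order, read 82.2 and 23.6 for males, then 200.4 and 173 for females. Cd22 of that list followed neither, at 135 and 116 for males, then 29.4 and 126 for females. Pancreatic acinar markers stood at 168% and 98.3% in the male and female null mice. In limma 0 genes of these 8 lists passed, and by unadjusted p under 0.05 there were Lmod1 of smooth muscle (1.05, SE 0.27) and Cd7 of T cells (−0.84, SE 0.22). Lmod1 read 18.1 and 13.3 in the male and female controls, within the range of Y-linked genes in females, so its size is a rough one. No marker used in these lists was listed at or below 0 on any array, and the part of these cells in the values of the uptake genes was not tested.

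**Figure D4:**
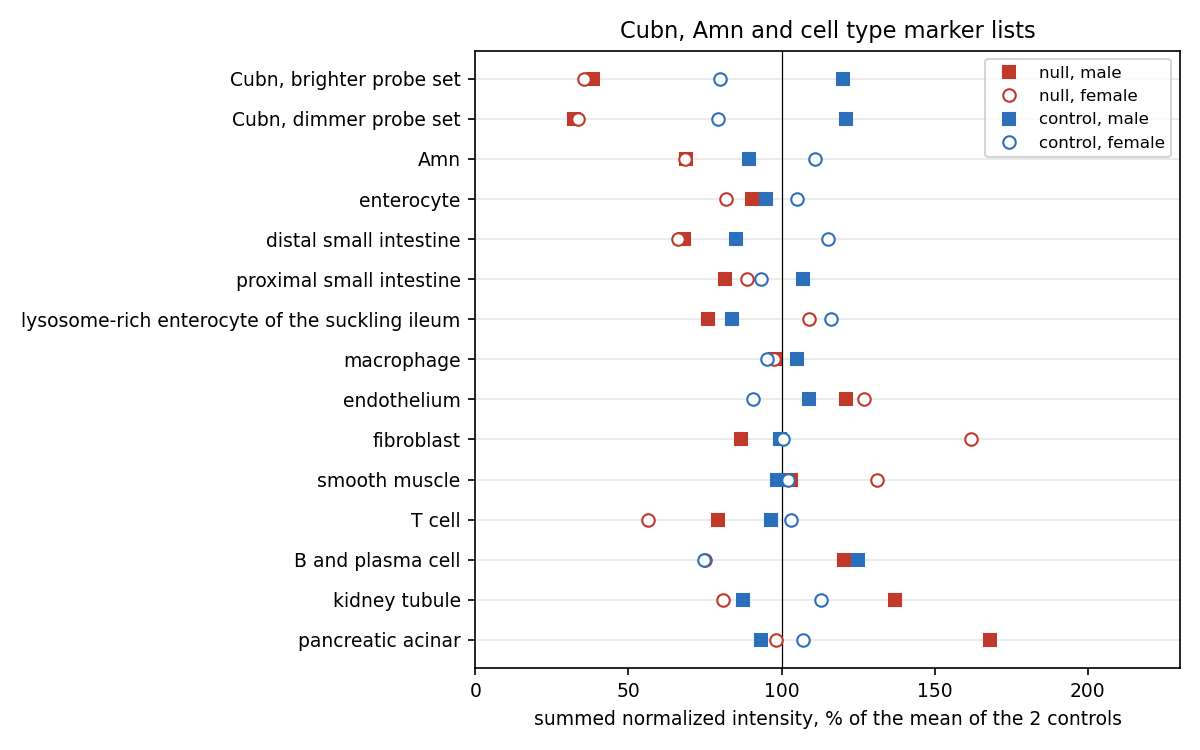
Normalized intensity of Cubn, Amn and the sum over each marker list on each array, as a percent of the mean of the 2 controls (x axis), with red for null, blue for control, squares for males and circles for females. Cubn lies at 32.1% to 38.3% in the null mice, Amn at 68.4% and 68.9%, and the enterocyte list at 81.9% and 90.4%.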

How the data were processed

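Total RNA of 4 mouse small intestines was hybridised to Affymetrix arrays, 1 per animal. RNA was prepared with RNeasy mini columns (Qiagen) and carried biotin, per the labels. The values deposited by the authors are linear intensities, 1 for each probe set and array, some below 0. How they were summarised, background corrected and scaled is not given in the sources used here.

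Of 22690 probe sets 64 were controls. Of the other 22626, 20380 had 1 gene in the platform annotation, 691 several and 1555 none. Intensities were quantile normalized, floored at 0, and expressed as log2 of the intensity plus 16, which understates the change of dim genes. Probe sets in the lowest 30% of mean log2 values did not enter the fit (a mean below 26.2 in intensity). The null against control test used limma 3.58.1 under R 4.3.3 (lmFit, eBayes with an intensity trend, no covariates, two-sided, Benjamini-Hochberg over 15838 probe sets, threshold 0.05). Residual degrees of freedom were 2, with 4.65 more from the prior. The script was tested on simulated data. SEs, intervals and p-values rest on limma's moderated variances, which draw on the other probe sets as well as on the spread between these mice. That spread includes sex within each group and, in the controls, genotype.

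The members and lists were chosen with earlier results of these data known. All probe sets of the 7 genes and every further cobalamin carrier are named. Of each other list up to 4 genes with the smallest p among those with the same sign in both sexes are named, besides the 5 genes nearest to Cubn. Of the marker lists, those with an unadjusted p under 0.05 are named, with Fabp2 for the tissue. Fabp6, Slc10a2, Slc51a, Gip, Ctsl, Lgmn, Lyz2, Jchain, Ms4a1 and Cd22 were added after their values were seen. Alternatives were other normalizations, pseudocounts of 1 and 64, no intensity filter, sex as a block, no trend and each array left out. Promoter sequences are those of RefSeq on GRCm38.p6.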

Additional observations from a re-analysis of the deposited data

Results flagged for a closer look

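In 7 of the 15 probe sets the male pair and the female pair moved in opposite directions, with 1 animal per sex and group; the difference between the sexes was not tested. Over all probe sets tested, 51.6% did so. Male before female, the null minus control log2 differences were −0.11 and 0.23 for Lrp2 (1427133_s_at). For Lrpap1 they were 0.31 and −0.05 (1436609_a_at), 0.50 and −0.28 (1452148_at), and 0.40 and −0.78 (1426697_a_at). For Dab2 they were −0.26 and 0.44 (1430604_a_at), and −0.01 and 0.06 (1420498_a_at). For Lmbrd1 they were 0.10 and −0.0048 (1451622_at). On these 7 probe sets the 2 controls differed from each other by −0.29 to 0.35 (male minus female, log2).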

How the results depend on the processing

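Over 11 alternatives both Cubn probe sets and Amn kept differences below 0, from −1.63 to −1.06 and −1.71 to −1.13 for Cubn and from −0.67 to −0.37 for Amn. The number of probe sets called over the whole array was 2, but it was 29 with sex as a block, 1 without a trend in the prior, and from 0 to 35 when 1 array was left out: 35 and 10 on dropping the male or the female null mouse, and 0 and 3 on dropping the male or the female control (205 and 225 with an unadjusted p under 0.05). The number of uptake probe sets called was 0, and 2, both of Cubn, with sex as a block; it was 0 under the other 10 alternatives. No gene of the pathway lists was called under any alternative. The median of the intracellular cobalamin list, 0.07, ranged from −0.20 to 0.19 when 1 array was left out; the medians of the other 6 lists moved by less than their spread between replicates, though those of the clathrin (−0.11 to 0.02), other-vitamin (−0.15 to 0.22) and lysosome (−0.04 to 0.08) lists crossed 0 on leaving out an array. So did the differences of 7 uptake probe sets, in Lrp2 (1427133_s_at, −0.12 to 0.23), Lrpap1 (−0.63 to 0.40 over the 3 that overlapped), Dab2 (−0.08 to 0.27 over the 2 tested) and Tcn2 (−0.37 to 0.01), which thus have no settled direction. Normalization moved the median of all probe sets by at most 0.04, to −0.05 as deposited. The labels give the groups no shared replicate numbers; the block on sex pairs 1 null and 1 control mouse of each sex, which nothing in the labels ties together otherwise. With 2 animals per group, and no detection calls, values near those of Y-linked genes in females cannot be ordered.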
